A study of Mus musculus with 48 samples.

Results

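The genes described here are 10 genes of the blood-brain barrier that carry nutrients, hormones and drugs across the endothelium or govern transcytosis: *Slc2a1*, *Slc7a5*, *Slc16a1*, *Slco1a4*, *Slco1c1*, *Abcb1a*, *Abcg2*, *Mfsd2a*, *Cav1* and *Plvap*. They were chosen by name, and each matched 1 of the 24973 genes of the deposited table. All 10 passed the filter of a mean of at least 10 normalized counts in each of the 4 cell types. Male wild-type C57BL/6 mice aged 12 to 15 weeks underwent transient occlusion of the middle cerebral artery for 1 h and reperfusion for 23 h. Flow cytometry then gave 4 sorted cell types, namely microglia, astrocytes, pericytes and endothelial cells, out of the ipsilateral, ischemic hemisphere and of the contralateral hemisphere of the same animals, which served as the control. Each of the 6 replicates of a group was a pool of 3 to 4 brains, so that the 8 groups comprised 48 libraries, each prepared from about 250 pg of RNA. The contralateral hemisphere belongs to an animal with a stroke, mice with a low neurological deficit score were left out by the authors, and no sham-operated group was analysed here.

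Endothelial cells of the brain are joined by tight junctions and move solutes across the vessel wall by carriers in their membranes, while efflux pumps return lipophilic compounds to the blood. They also keep vesicular transport low. Mfsd2a, a carrier of lysophosphatidylcholine lipids, is known to suppress the formation of caveolae, which need caveolin-1 (*Cav1*), and Plvap forms the diaphragms of caveolae and fenestrae in leaky vessels and is scarce in the mature barrier. The comparisons ask how far these genes are set apart in endothelial cells from the other cells of the neurovascular unit, and how their RNA differs between the hemispheres of each cell type.

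The labels were first checked against marker genes. All 8 endothelial, 8 astrocyte and 8 microglia markers were higher in every library of their own cell type than in any other library, as were 5 of 8 pericyte markers. The pericyte markers that overlapped were *Kcnj8* (3 to 348 in pericytes), *Abcc9* (0 to 148) and *Vtn* (1096 to 26311). In contralateral astrocytes they reached 1378, 793 and 6883. For the 12 ipsilateral pericyte and microglia libraries the sample titles name the opposite cell type from the table's columns, and the columns were used: the 8 microglia markers summed to 692 to 64369 in the ipsilateral pericyte columns and to 225662 to 377001 in the ipsilateral microglia columns. The sorted pericytes also held 305671 to 472420 normalized counts of 4 smooth muscle markers in the contralateral hemisphere, against 55508 to 178742 of the pericyte markers. The name pericytes is that of the columns, and pericytes and smooth muscle cells were not told apart. The contralateral astrocytes held 31112 to 283903 of 4 oligodendrocyte markers, against 225292 to 406649 of the astrocyte markers. Libraries held an estimated 4900000 to 17100000 reads on genes, and 3 reads were worth at most 7.1 normalized counts. Contralateral endothelial replicate 2 stood apart: it was the lowest of its group for 9 of the 10 genes, it had 110900 normalized counts of choroid plexus markers against 558 to 20802 in the other 5, and its endothelial markers went both ways. Of the 8, it was lowest for *Tie1* (1685 against 9991 to 12261), *Pecam1* (5823 against 15795 to 18580), *Esam* and *Ptprb*, highest for *Emcn* (9981 against 4230 to 5825) and *Cdh5* (3275 against 1767 to 2509), and among the others for *Cldn5* and *Erg*. Ipsilateral endothelial replicate 3 was the lowest of its group for 8 of the 10 genes and had the most RNA of neutrophil markers, 10121 normalized counts against 78 to 4472 in the others, and of microglia markers, 49300 against 1106 to 23622. The stroke changes of the 10 genes in endothelial cells are therefore also given without each of these replicates. Levels and comparisons between cell types use all libraries unless stated otherwise.

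In contralateral endothelial cells the glucose carrier stood above all other members. *Slc2a1* (GLUT1; ENSMUSG00000028645, chr4:119108711-119137983, plus strand) is the glucose uniporter of the barrier. It had 55830 to 146673 normalized counts with a median of 133586, and the 5 libraries other than replicate 2 had at least 110206. Per kilobase of exon, its mean was 34416 normalized counts, 4.18 times that of the next gene. *Slco1a4* (ENSMUSG00000030237, chr6:141805440-141856171, minus strand) encodes an organic anion transporter for steroid conjugates and drugs and followed with a mean of 8228 per kilobase. The other 8 genes ranged per kilobase from 3389 for *Slco1c1* to 1757 for *Abcb1a*, and then to 859 for *Plvap*, which had the lowest level. Neighbours from *Slco1c1* down to *Abcb1a* differed by factors of 1.01 to 1.23 in their means.

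The hypoxia response element core, the letters ACGTG or GCGTG on either strand, was searched in the RefSeq promoter windows (GRCm38.p6), which run from 250 bases before to 50 after a start, because ischemia is the stimulus of the study. 8 of the 10 genes are in the RefSeq promoter table and *Slc7a5* and *Plvap* are not; 7 have a window over the gene start of the deposited table. The core was found in 5 of these 7 windows and in 43.8% of all 32851 windows of the same length. Overlapping matches were merged and counted once. The windows of 4 genes are shown, *Slc2a1* for its level, *Slc16a1* and *Mfsd2a* for their pattern over cell types and *Slco1a4* as a window with no match, in lower case with the core in capitals. A match is a description of letters and not a shown site of binding. They lie at chr4:119108495-119108794 (plus strand, 2 matches), chr3:104638414-104638713 (plus strand, 4 matches), chr4:122961139-122961438 (minus strand, 4 matches) and chr6:141856171-141856470 (minus strand).
Slc2a1: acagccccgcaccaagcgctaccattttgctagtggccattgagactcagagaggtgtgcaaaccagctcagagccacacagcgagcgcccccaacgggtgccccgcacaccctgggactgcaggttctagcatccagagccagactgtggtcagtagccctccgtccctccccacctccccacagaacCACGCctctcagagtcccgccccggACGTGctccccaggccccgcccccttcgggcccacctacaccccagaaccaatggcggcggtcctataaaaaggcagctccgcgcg
Slc16a1: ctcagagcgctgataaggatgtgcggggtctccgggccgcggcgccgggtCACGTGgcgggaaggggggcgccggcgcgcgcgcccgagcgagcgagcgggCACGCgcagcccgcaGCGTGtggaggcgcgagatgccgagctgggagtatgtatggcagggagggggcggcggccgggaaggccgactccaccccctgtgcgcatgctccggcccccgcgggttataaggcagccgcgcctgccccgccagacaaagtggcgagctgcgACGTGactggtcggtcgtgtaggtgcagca
Mfsd2a: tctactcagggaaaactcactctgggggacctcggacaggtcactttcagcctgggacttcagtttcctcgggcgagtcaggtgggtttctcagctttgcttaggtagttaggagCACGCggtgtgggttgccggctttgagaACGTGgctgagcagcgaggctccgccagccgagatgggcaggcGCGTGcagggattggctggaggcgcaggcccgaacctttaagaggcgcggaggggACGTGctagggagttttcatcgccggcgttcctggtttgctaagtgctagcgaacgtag
Slco1a4: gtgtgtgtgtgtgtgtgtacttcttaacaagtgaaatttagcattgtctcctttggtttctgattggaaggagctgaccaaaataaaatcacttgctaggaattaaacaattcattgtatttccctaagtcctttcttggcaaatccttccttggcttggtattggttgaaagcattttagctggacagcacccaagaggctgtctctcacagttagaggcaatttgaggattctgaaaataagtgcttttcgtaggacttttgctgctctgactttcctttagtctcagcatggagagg

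Nearly all of the genes were higher in contralateral endothelial cells than in the other contralateral cells. In the fit of all 48 libraries, 9 of 10 passed as higher than in pericytes, where 14.5% of all genes tested did, 9 of 10 as higher than in astrocytes, where 16.2% did, and 10 of 10 as higher than in microglia, where 17.4% did. The exceptions were *Cav1* in pericytes and *Mfsd2a* in astrocytes. *Slc2a1* was 33.0-fold higher than in pericytes (log2 5.05, SE 0.29), 13.6-fold than in astrocytes (3.76) and 50.7-fold than in microglia (5.66), and the groups did not overlap. Over all 8 groups, the 2 endothelial groups had the highest means for 8 of the 10 genes, and the 2 overlapped each other for each of them. All endothelial libraries lay above all others for 5 of these genes (*Slc2a1*, *Abcb1a*, *Abcg2*, *Slco1a4* and *Plvap*). For *Slco1c1*, *Slc7a5* and *Slc16a1* the ipsilateral endothelial libraries overlapped those of astrocytes. For *Slc7a5* (lowest 2031) they also overlapped those of ipsilateral microglia (highest 2642). The lowest contralateral endothelial library of *Slco1c1*, 9279, lay under the highest of contralateral astrocytes, 9431. That of *Slc7a5*, 3416, lay under the highest of ipsilateral astrocytes, 3499. The astrocyte groups led for *Mfsd2a* and the pericyte groups for *Cav1*.

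**Figure D1:**
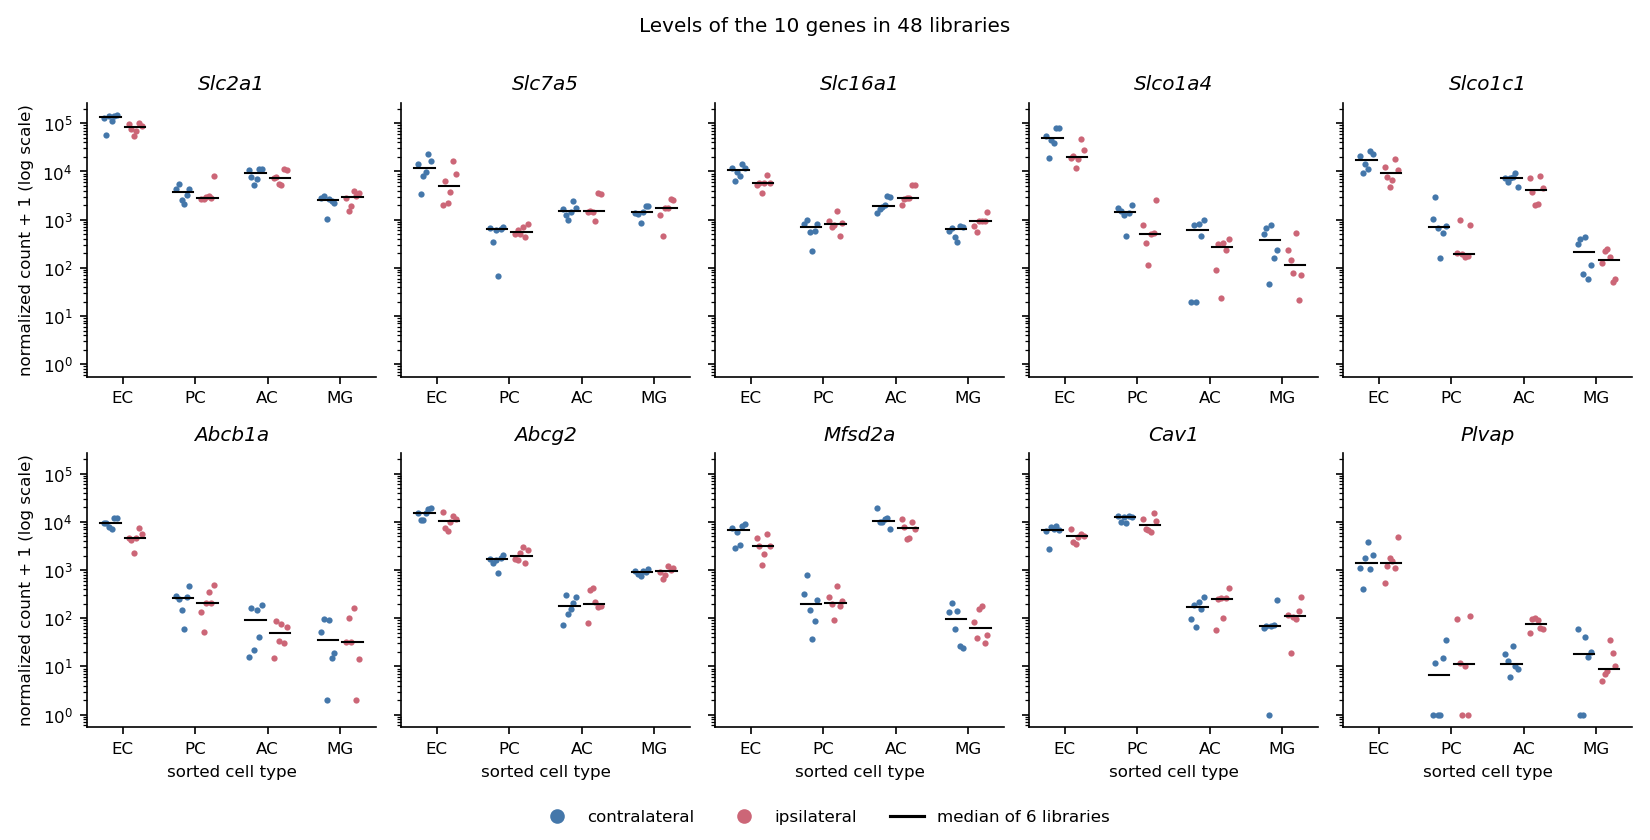
Normalized count + 1 on a log scale for each of the 10 genes in the 4 sorted cell types, where EC stands for endothelial cells, PC for pericytes, AC for astrocytes and MG for microglia. Points are libraries, 6 per group, with contralateral in blue and ipsilateral in red, and lines are medians. *Slc2a1* in endothelial cells reaches 146673, *Mfsd2a* has its highest library, 19196, in astrocytes, and *Cav1* its highest, 15155, in pericytes.

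The efflux pumps differed in how far they were set apart. *Abcb1a* (ENSMUSG00000040584, chr5:8660077-8748575, plus strand) encodes P-glycoprotein. It ranged from 6954 to 11878 in contralateral endothelial cells with a median of 9550.5, from 58 to 460 in pericytes, from 15 to 188 in astrocytes and from 1 to 95 in microglia. *Abcg2* (ENSMUSG00000029802, chr6:58596671-58695676, plus strand) encodes the breast cancer resistance protein. It ranged from 10707 to 19344 in endothelial cells, from 866 to 2078 in pericytes, from 70 to 296 in astrocytes and from 763 to 1075 in microglia. The difference between endothelial cells and microglia was thus log2 8.56 (SE 0.78) for *Abcb1a* and 4.00 (SE 0.30) for *Abcg2*, and the *Abcg2* libraries of microglia lay above all those of astrocytes.

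Whether RNA outside endothelial cells was more than that of other endothelial genes was read from the 8 endothelial markers. As a percentage of the mean of contralateral endothelial cells, the markers had a contralateral median of 2.09% (pericytes), 0.807% (astrocytes) and 0.701% (microglia). For the microglia, *Abcg2* stood at 5.09 to 7.17%, *Slc16a1* at 3.34 to 7.21% and *Slc7a5* at 6.70 to 15.4%, each above all 8 markers in 6 of 6 libraries. In astrocytes, *Slc2a1*, *Slc7a5*, *Slc16a1*, *Slco1c1* and *Mfsd2a* were above all 8 markers in 6 of 6 libraries. *Abcb1a* and *Slco1a4* were above all 8 markers in 0 of 6 libraries in any of the 3 cell types. In pericytes *Esam* reached 42.8%, and only *Cav1* was above every marker in 6 of 6 libraries.

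**Figure D2:**
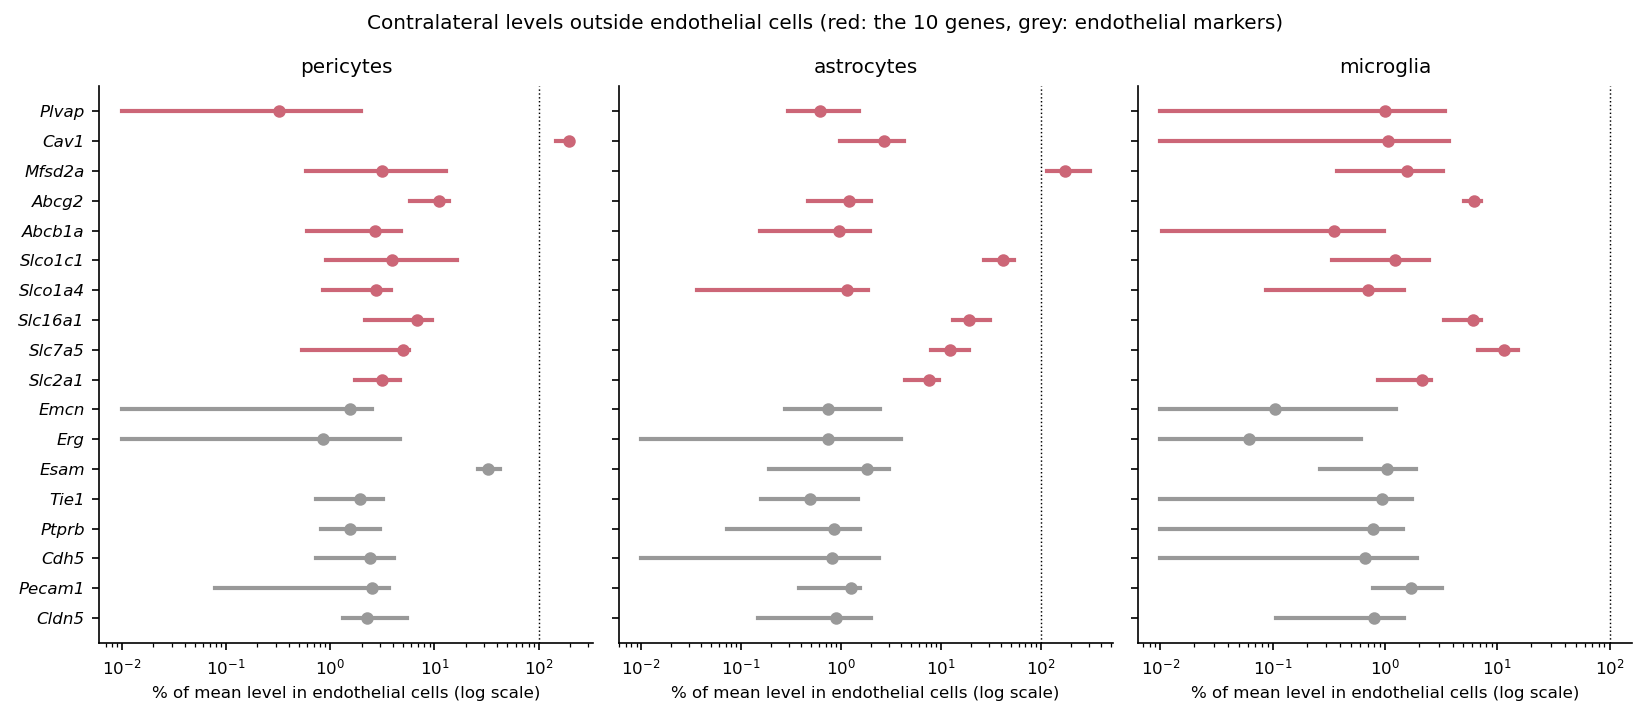
Level in contralateral pericytes, astrocytes and microglia as a percentage, on a log scale, of the mean in contralateral endothelial cells; values under 0.01% are drawn at 0.01%. Points are medians and lines the range of 6 libraries for the 10 genes (red) and 8 endothelial markers (grey); *Cav1* in pericytes and *Mfsd2a* in astrocytes lie above 100%.

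The astrocytes shared several carriers with the endothelium. *Mfsd2a* (ENSMUSG00000028655, chr4:122946850-122961188, minus strand) had 7019 to 19196 normalized counts in contralateral astrocytes with a median of 10650, and 2844 to 8914 with a median of 6832.5 in endothelial cells. The groups overlapped, and the difference of log2 -0.97 (95% interval -2.05 to 0.10) did not pass (adjusted p = 0.128, and 0.0831 to 0.240 over the alternatives). *Slco1c1* (ENSMUSG00000030235, chr6:141524386-141570177, plus strand) encodes a thyroxine transporter. It had 9279 to 26389 normalized counts in endothelial cells and 4715 to 9431 in astrocytes, the groups overlapped slightly, and the difference of log2 1.25 (SE 0.53) passed narrowly (adjusted p = 0.0481). That call was lost in 7 of 13 alternatives, with adjusted p up to 0.254.

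Of the other solute carriers, *Slc16a1* (ENSMUSG00000032902, chr3:104638668-104658462, plus strand) encodes the monocarboxylate transporter MCT1 for lactate and ketone bodies. It had 6394 to 13970 normalized counts in endothelial cells and 1346 to 3156 in astrocytes, without overlap (log2 2.27, SE 0.30). *Slc7a5* (ENSMUSG00000040010, chr8:121881150-121907694, minus strand) encodes LAT1, which carries large neutral amino acids. It had 3416 to 23112 normalized counts in endothelial cells, 988 to 2384 in astrocytes, 837 to 1926 in microglia and 67 to 708 in pericytes. *Slco1a4* had 18730 to 81378 normalized counts in endothelial cells, 452 to 2041 in pericytes, 19 to 989 in astrocytes and 46 to 784 in microglia, and 2 of the 6 astrocyte libraries stood at 19.

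The transcytosis genes went different ways. *Cav1* (ENSMUSG00000007655, chr6:17306335-17341452, plus strand) had 9607 to 13260 normalized counts in contralateral pericytes with a median of 12649, and 2693 to 8158 with a median of 6940 in endothelial cells. The 2 groups did not overlap, but the difference of log2 -0.93 (95% interval -2.27 to 0.41) did not pass in the joint fit (adjusted p = 0.295), in which the spread of all 8 groups is pooled. *Plvap* (ENSMUSG00000034845, chr8:71497765-71511752, minus strand) had 402 to 3910 normalized counts in contralateral endothelial cells, and 0 to 34 in pericytes, 5 to 26 in astrocytes and 0 to 58 in microglia. Its endothelial libraries thus spanned a wide range and all lay above those of the other cells.

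In endothelial cells, 9 of the 10 genes had a lower mean log2 level in the ipsilateral hemisphere, and none passed the test. The median change of the 10 genes was -0.84 on the log2 scale, against -0.03 over all 13242 genes tested, of which 52.1% were below 0. A gene counted as called had an adjusted p of at most 0.05, a change of at least 1.5-fold and over 10 normalized counts throughout the 6 libraries of at least 1 hemisphere. This left 0 of 10 genes called where 0.491% of all genes were, and the lowest adjusted p of a member was 0.104 (limma). At an unadjusted p under 0.05 there were 5 of 10 genes, all lower, against 11.9% of all genes in either direction. Without replicate 2 all 10 genes were lower and 8 had an unadjusted p under 0.05, as 14.6% of all genes did. Without replicate 3 there were 9 and 2, against 8.21% of all genes, and no gene was called without either. With the replicate number as a block, which pairs the hemispheres of the same pooled mice, 7 had an unadjusted p under 0.05 (13.6% of all genes) and 0 were called (0.551%). In these bulk samples, fewer cells that express a gene and less RNA per cell cannot be told apart.

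**Figure D3:**
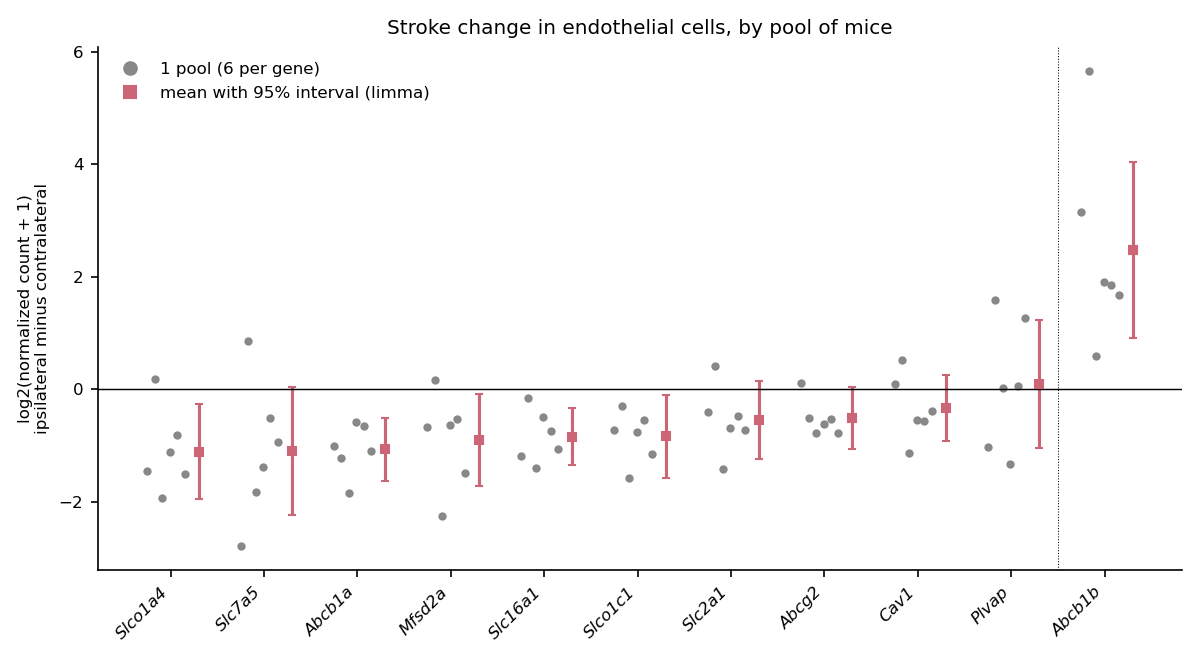
Difference in log2(normalized count + 1), ipsilateral minus contralateral, in endothelial cells for the 10 genes and, right of the dotted line, *Abcb1b*. Grey points are the 6 pools of mice and red squares the mean with its 95% interval from limma. This fit did not pair the hemispheres, so the interval does not measure the spread of the grey points. *Abcb1a*, *Slc16a1* and *Slco1c1* lie below 0 in 6 of 6 pools and *Abcb1b* above 0 in 6 of 6.

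Among the efflux pumps, *Abcb1a* had 6954 to 11878 normalized counts contralaterally (mean 9626 ± 1987, SD, n = 6 pools) and 2226 to 7568 with a median of 4672.5 ipsilaterally (4807 ± 1749). It was lower in 6 of 6 pools, although 1 ipsilateral library reached into the contralateral range. The change was log2 -1.07 (SE 0.26, 95% interval -1.63 to -0.50; adjusted p = 0.104, and 0.0676 with the replicate block). It was -1.04 without replicate 2 (adjusted p = 0.139) and -0.91 without replicate 3 (adjusted p = 0.251), and it was -1.16 in replicates 1 to 4 and -0.87 in replicates 5 and 6. *Abcg2* had 6489 to 16188 normalized counts ipsilaterally with a median of 10549, overlapped the contralateral range widely, and was lower in 5 of 6 pools (log2 -0.51, 95% interval -1.07 to 0.04; adjusted p = 0.459). Its change was -0.52 without replicate 2 and -0.46 without replicate 3.

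*Abcb1b* (ENSMUSG00000028970, chr5:8798186-8866315, plus strand), the neighbouring paralogue of *Abcb1a*, which also encodes a P-glycoprotein, differed the other way. It had 4 to 227 normalized counts in contralateral endothelial cells with a median of 85.5 and 232 to 372 with a median of 304.5 in ipsilateral ones. The hemispheres did not overlap, and it was higher in 6 of 6 pools, but the change of log2 2.48 (SE 0.73) did not pass (adjusted p = 0.162; unadjusted p = 0.00420). In the joint fit of 48 libraries it passed (adjusted p = 0.0289), and without replicate 2, whose contralateral library had 4 normalized counts, the change was 1.84 (adjusted p = 0.121), against 2.86 without replicate 3 (adjusted p = 0.271). Of the 75-base windows of the longest *Abcb1a* transcript, 12.7% also occur in transcripts of other genes, *Abcb1b* among them, and the authors left out reads that map to several places. The level of *Abcb1b* in contralateral endothelial cells was 11.2 normalized counts per kilobase, against 1757 for *Abcb1a*.

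Among the carriers of fuel and amino acids, *Slc16a1* was lower in 6 of 6 pools. It had 6394 to 13970 normalized counts contralaterally with a median of 10694.5 and 3627 to 8377 with a median of 5708 ipsilaterally, and only the contralateral libraries of replicates 2 and 4 lay within the ipsilateral range. The change was log2 -0.84 (SE 0.24, 95% interval -1.35 to -0.32; adjusted p = 0.156). It was -0.97 without replicate 2 (adjusted p = 0.0847) and -0.72 without replicate 3 (adjusted p = 0.457). *Slc2a1* had 53862 to 99906 normalized counts ipsilaterally with a median of 81843.5, so that 5 of the 6 contralateral libraries lay above every ipsilateral one and replicate 2 lay near the bottom. Its change of log2 -0.54 (95% interval -1.23 to 0.15; adjusted p = 0.542) became -0.74 without replicate 2 (adjusted p = 0.213) and -0.37 without replicate 3 (adjusted p = 0.840). *Slc7a5* spread most, with 2031 to 16185 normalized counts ipsilaterally, and its pools differed by log2 -2.78 to 0.86 (mean -1.09, SE 0.54; adjusted p = 0.442). The mean was -1.48 without replicate 2 (adjusted p = 0.227) and -0.95 without replicate 3 (adjusted p = 0.711).

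Both organic anion transporters had lower ipsilateral means. *Slco1a4* had 11793 to 46292 normalized counts ipsilaterally with a median of 20354, against a contralateral median of 49204.5, and was lower in 5 of 6 pools. The change was log2 -1.11 (SE 0.40, 95% interval -1.95 to -0.26; adjusted p = 0.264), -1.36 without replicate 2 (adjusted p = 0.117) and -0.94 without replicate 3 (adjusted p = 0.611). *Slco1c1* had 4837 to 18078 normalized counts ipsilaterally with a median of 9101, against 17541 contralaterally, and was lower in 6 of 6 pools (log2 -0.84, SE 0.35; adjusted p = 0.350). Its change was -0.95 without replicate 2 and -0.69 without replicate 3 (adjusted p = 0.244 and 0.661). Replicates 5 and 6 held the highest *Slco1a4* libraries of each hemisphere. The mean differences in replicates 1 to 4 and in replicates 5 and 6 were -1.08 and -1.16 for *Slco1a4*, and -0.83 and -0.84 for *Slco1c1*.

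None of the transcytosis genes passed the test, and differences between genes were not tested. *Mfsd2a* had 1291 to 5730 normalized counts ipsilaterally with a median of 3199, was lower in 5 of 6 pools, and its difference was log2 -0.90 (SE 0.38; adjusted p = 0.359), with -1.11 without replicate 2 and -0.63 without replicate 3 (adjusted p = 0.217 and 0.705). *Cav1* had 3499 to 7079 normalized counts ipsilaterally with a median of 5008.5, and its change of log2 -0.34 (95% interval -0.92 to 0.25; adjusted p = 0.686) was the smallest of the 9 lower genes. It was -0.51 without replicate 2 and -0.18 without replicate 3 (adjusted p = 0.236 and 0.908). *Plvap* had 537 to 4850 normalized counts ipsilaterally with a median of 1382.5, against 1433.5 contralaterally. It was higher in 4 of 6 pools, and the interval of its change, log2 0.10 (-1.04 to 1.24; adjusted p = 0.974), leaves room for more than 2-fold in either direction. Its change was -0.20 without replicate 2 and 0.11 without replicate 3.

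Other markers that moved in the endothelial libraries were measured beside these values, and their part in the changes was not tested. The 8 endothelial markers summed to 94629 to 139778 contralaterally and 95010 to 135771 ipsilaterally, higher in 3 of 6 pools, with 0 of 8 called. The 4 venous markers summed to 19142 to 65123 and 29418 to 65326, higher in 6 of 6 pools. Of the 4, *Ackr1* was higher by log2 2.33 (adjusted p = 0.358), while *Vwf*, *Vcam1* and *Nr2f2* stood at 0.016, -0.0037 and -0.21. The 4 arterial markers summed to 3445 to 6026 and 2471 to 3908, lower in 5 of 6. Neutrophil markers summed to 6 to 1726 and 78 to 10121 and were higher in 6 of 6 pools, with 0 of the 5 tested called and *Ly6g* at 0 to 16. Smooth muscle markers summed to 441 to 6161 and 205 to 1603 and pericyte markers to 763 to 2838 and 292 to 2202, both lower in 6 of 6 pools. Erythrocyte markers summed to 6242 to 78354 and 5257 to 24222 and astrocyte markers to 636 to 3917 and 329 to 10391, both lower in 5 of 6. Of the single astrocyte markers, only *Fgfr3* had a mean log2 change below 0 (-0.93). *Gfap* (3.15), *Aqp4* (1.15), *Slc1a2* (1.11), *Aldoc* (0.97), *Gjb6* (0.64), *Aldh1l1* (0.17) and *Slc1a3* (0.10) lay above 0, with 0 of 8 called. Without replicate 1 the ipsilateral astrocyte marker sums were 329 to 2511. Neuron markers summed to 963 to 2661 and 389 to 1041 and were lower in 6 of 6 pools, most of it *Stmn2* (log2 -1.44; adjusted p = 0.0552).

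In astrocytes, 1 of 10 genes was called, where 0.341% of all 15264 genes tested were. *Plvap* had 5, 8, 9, 12, 17 and 26 normalized counts in the contralateral libraries and 48, 60, 61, 91, 97 and 101 in the ipsilateral ones. The hemispheres did not overlap, and *Plvap* was higher in 6 of 6 pools. It rose by log2 2.6 (SE 0.45, 95% interval 1.64 to 3.56; adjusted p = 0.0235, and 0.0254 with the replicate block). The call was lost in the joint fit of 48 libraries (adjusted p = 0.485), in replicates 1 to 4 alone (adjusted p = 0.192), and when any 1 replicate was left out (adjusted p 0.0523 to 0.177, highest without replicate 2). The level stayed small: ipsilateral astrocytes had 2.61 to 5.48% of the mean of ipsilateral endothelial cells. Within each of the 6 libraries this was above the percentage of all 8 endothelial markers, which ranged from 0 to 4.73% over the libraries. It was so in 1 of 6 contralateral libraries. The sum of these markers in astrocytes was 292 to 2438 contralaterally and 343 to 3078 ipsilaterally, higher in 4 of 6 pools, with 0 of the 7 tested called.

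The other 9 genes in astrocytes did not pass, 4 with means above 0 and 5 below. With *Plvap*, 4 of 10 genes had an unadjusted p under 0.05, 2 of them lower, where 1416 of 15264 genes did. With 1 replicate left out there were 1 to 4, where 808 to 1640 of 15199 to 15349 genes did. *Slc16a1* had 1346 to 3156 normalized counts contralaterally with a median of 1939.5 and 2009 to 5201 with a median of 2826.5 ipsilaterally. The hemispheres overlapped, yet every pool was higher, by log2 0.43 to 0.83. The mean of 0.65 (SE 0.28) did not pass (adjusted p = 0.502), and it passed with the replicate block (adjusted p = 0.0217), so that 2 of 10 genes were called there, where the block called 1.59% of all genes. *Mfsd2a* had 4381 to 11268 normalized counts ipsilaterally with a median of 7440, against 10650 contralaterally, and was lower in 6 of 6 pools (log2 -0.65, SE 0.28; adjusted p = 0.514). *Slco1c1* had 2043 to 8171 ipsilaterally with a median of 4110, against 7314, and was also lower in 6 of 6 pools (log2 -0.77, SE 0.34; adjusted p = 0.515). For both, the difference was larger in replicates 1 to 4 (-0.90 and -1.09) than in replicates 5 and 6 (-0.15 and -0.13). The 8 astrocyte markers summed to 225292 to 406649 contralaterally and 126091 to 343306 ipsilaterally and were lower in 5 of 6 pools, and neutrophil markers to 36 to 1475 and 223 to 5400, higher in 6 of 6. Pericyte markers in these libraries summed to 1758 to 17029 and 1473 to 8265, lower in 6 of 6 pools, and smooth muscle markers to 336 to 1736 and 81 to 2427, lower in 5 of 6. Arterial markers summed to 59 to 233 and 51 to 185, lower in 5 of 6, and neuron markers to 139 to 892 and 200 to 1129, higher in 5 of 6. Their part in these values was not tested.

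In pericytes and microglia none of the 10 genes was called, where 1.02% of 13597 and 10.6% of 13300 genes were. At an unadjusted p under 0.05 there was 1 of 10 genes in each, where 15.4% of all genes in pericytes and 28% in microglia were. With 1 replicate left out it was 0 to 2 in pericytes, where 1420 to 2132 of 13416 to 13691 genes were. In microglia it was then 0 to 1, where 2796 to 4099 of 13233 to 13414 genes were. With the replicate block there were 3 of 10 in pericytes (18.5% of all genes) and 2 of 10 in microglia (30% of all genes). Without the block, the gene in pericytes was *Slco1a4*, which had 452 to 2041 normalized counts contralaterally and 111 to 2573 ipsilaterally, lower in 4 of 6 pools (log2 -1.29, SE 0.59; adjusted p = 0.313). *Cav1*, at its highest in this cell type, had 6232 to 15155 normalized counts ipsilaterally with a median of 8718 against 12649 contralaterally, lower in 5 of 6 pools (log2 -0.38, 95% interval -0.85 to 0.08; adjusted p = 0.416). In the same pericyte libraries smooth muscle markers summed to 305671 to 472420 contralaterally and 140102 to 323604 ipsilaterally, lower in 6 of 6 pools, and neutrophil markers to 0 to 1595 and 44 to 12926, higher in 6 of 6. Endothelial markers there summed to 9964 to 14978 and 6161 to 17619 and pericyte markers to 55508 to 178742 and 38542 to 151211, both lower in 5 of 6 pools. Of the endothelial sum, *Esam* alone held 7617 to 12549 and 4287 to 9905 (log2 -0.60). *Ptprb* (-0.94), *Tie1* (-0.52) and *Cldn5* (-0.031) were also below 0. *Emcn* (2.54), *Cdh5* (1.64), *Pecam1* (1.10) and *Erg* (0.66) were above 0, with 0 of 8 called. Microglia markers summed to 593 to 27161 and 692 to 64369 and oligodendrocyte markers to 276 to 28068 and 836 to 19839, both higher in 5 of 6, and choroid plexus markers to 14 to 83203 and 96 to 43636, lower in 5 of 6. Their part in these values and in those of *Pacsin2*, given further on, was not tested. In microglia the gene was *Slc16a1*. It had 343 to 741 normalized counts contralaterally with a median of 627.5 and 547 to 1430 with a median of 933 ipsilaterally. It was higher in 5 of 6 pools (log2 0.66, SE 0.25; adjusted p = 0.0996). Without replicate 2 it passed (adjusted p = 0.0270), where 1909 of 13233 genes tested were called. In these libraries the sums of microglia and of astrocyte markers were each lower in 6 of 6 pools. *Slc1a3* was the only astrocyte marker called, and 3 neutrophil markers were called higher and 1 lower. The values of these markers are given further on, and their part in this change was not tested. *Abcg2* in microglia was among the most even values, 763 to 1075 contralaterally and 648 to 1232 ipsilaterally (log2 0.03, 95% interval -0.36 to 0.41).

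**Figure D4:**
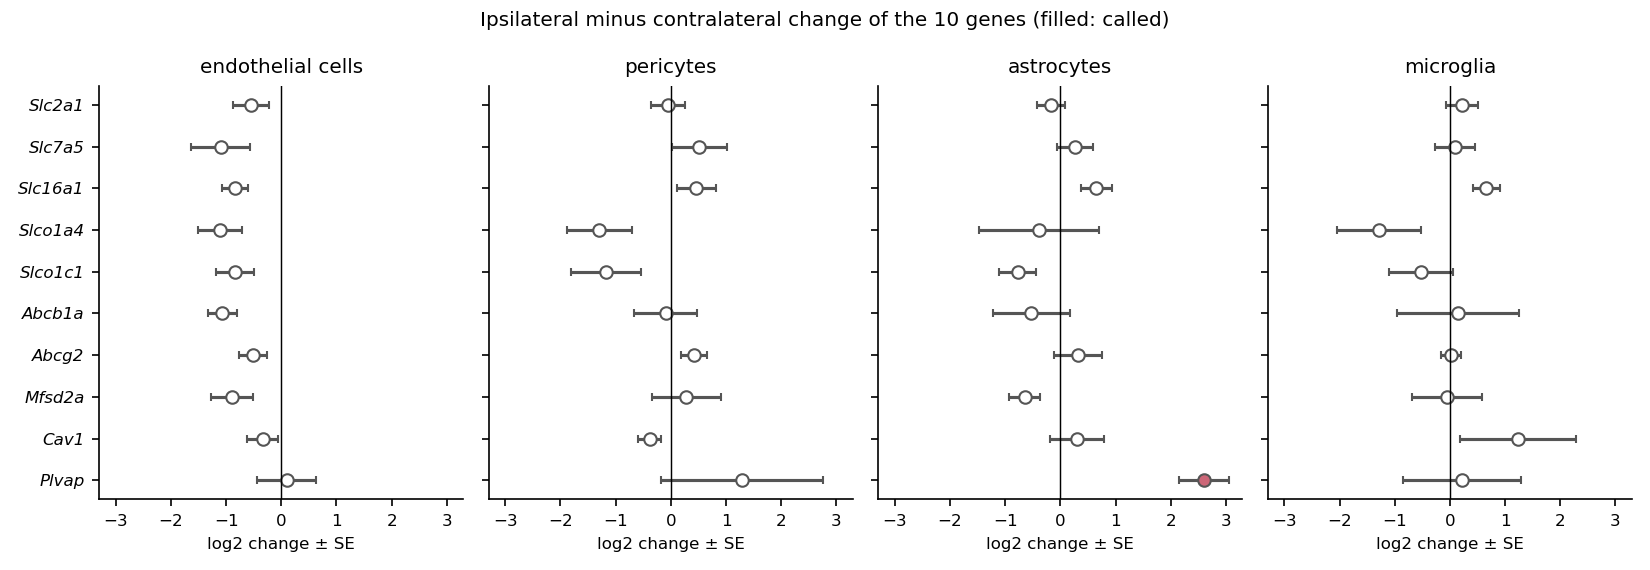
Change of each gene, ipsilateral minus contralateral, in log2(normalized count + 1) with its standard error in the 4 cell types (6 libraries per hemisphere). Filled points passed the test; only *Plvap* in astrocytes did, at 2.6, and in endothelial cells 9 of 10 points lie below 0.

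Whether the change in endothelial cells differed from that in the other cell types was tested as an interaction over all 48 libraries. None of the 10 genes passed against pericytes, astrocytes or microglia, where 0.0267%, 0.06% and 0.273% of 15003 genes did. *Slc16a1* had the smallest p of the 10 genes in each comparison. It was lower in 6 of 6 endothelial pools and higher in 6 of 6 astrocyte pools, and the changes differed by log2 -1.49 (SE 0.42; unadjusted p = 0.000882, adjusted p = 0.272). Against microglia the difference was -1.50 (SE 0.42; adjusted p = 0.116, and 0.0658 with the replicate block) and against pericytes -1.30 (SE 0.42; adjusted p = 0.316). Without replicate 3 the differences were -1.37 from astrocytes, -1.29 from microglia and -1.18 from pericytes (adjusted p = 0.827, 0.414 and 0.699). Without replicate 2 they were -1.62, -1.82 and -1.61 (adjusted p = 0.281, 0.0858 and 0.209). At an unadjusted p under 0.05, reached by 7.95% of all genes, *Slc7a5* and *Abcg2* also differed in their change from pericytes, by log2 -1.61 (adjusted p = 0.532) and -0.93 (adjusted p = 0.575).

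The wider transport and transcytosis machinery was described with 51 further genes in 4 lists: 6 efflux transporters, 24 solute carriers, 12 transcytosis receptors and 9 caveolae genes. In endothelial cells 50 were tested, 30 were below 0 with a median of -0.30, where 52.1% of all genes were below 0, and 1 was called, where 0.491% of all genes were. It was *Cavin2*, a caveolar coat protein, which fell from 6568 to 11278 normalized counts contralaterally to 2768 to 5780 ipsilaterally, without overlap and in 6 of 6 pools (log2 -1.14, SE 0.22; adjusted p = 0.0370). With the replicate block its adjusted p was 0.0612 and 0 of the 50 were called. The call was also lost in the joint fit (adjusted p = 0.420), in replicates 1 to 4 alone (adjusted p = 0.261), and when any 1 replicate but replicate 1 was left out (adjusted p 0.0389 to 0.187 over the 6, highest without replicate 6). In pericytes 1 of 50 was called, where 1.02% of all genes were. It was *Pacsin2*, which shapes the necks of caveolae, lower by log2 -0.80 (SE 0.18; adjusted p = 0.0479). Its call was lost when any 1 replicate was left out (adjusted p 0.0537 to 0.215) and with the replicate block (adjusted p = 0.0550), which called 3 other genes of the lists and 1.66% of all genes.

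In astrocytes 1 of 50 was called, where 0.341% of all genes were. *Slc7a1*, a carrier of cationic amino acids, rose from 105 to 180 normalized counts contralaterally to 392 to 581 ipsilaterally, without overlap and in 6 of 6 pools (log2 1.82, SE 0.21; adjusted p = 0.00174, and at most 0.0246 over 14 alternatives). With the replicate block 3 of 50 were called, where 1.59% of all genes were. In microglia 7 of 46 were called, 2 higher and 5 lower, where 10.6% of all genes were called. *Cd36*, a scavenger receptor for lipids, rose from 36 to 209 normalized counts to 563 to 2151 (log2 3.32, SE 0.41; adjusted p = 0.000241, and 0.108 in the joint fit). *Insr*, the insulin receptor, fell by 1.23 on the log2 scale (adjusted p = 0.00725), and *Slc40a1*, the iron exporter ferroportin, fell by 1.43 (adjusted p = 0.00881, and 0.149 at the highest over the alternatives). The microglia markers in these libraries fell from 454216 to 543323 contralaterally to 225662 to 377001 ipsilaterally in sum, lower in 6 of 6 pools, and 3 of 8 were called lower. Of the 6 neutrophil markers in them, *S100a8* (log2 3.35; adjusted p = 0.0122), *S100a9* (3.26; adjusted p = 0.00356) and *Retnlg* (3.36; adjusted p = 0.0145) were called higher and *Csf3r* lower (-1.77; adjusted p = 0.00235), and *Ly6g* stood at 0 to 6. Astrocyte markers in the microglia libraries summed to 3100 to 6195 and 1290 to 4331, lower in 6 of 6 pools. Of these sums *Slc1a3*, called lower (log2 -1.62, adjusted p = 0.000241), held 2500 to 3285 and 537 to 1347. *Gfap* (-0.49), *Gjb6* (-0.36), *Aldoc* (-0.30), *Fgfr3* (-0.057) and *Aqp4* (-0.010) were below 0 and *Aldh1l1* (0.44) and *Slc1a2* (0.36) above, none called. Of the choroid plexus markers *Aqp1* was called lower (-3.85), as was *Vcam1* of the venous markers (-0.76; adjusted p = 0.0486), and erythrocyte markers summed to 904 to 11360 and 2666 to 14696, higher in 5 of 6. The part of these markers in the changes of the list was not tested.

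For each gene, the genes whose log2 levels ran most alike over the 48 libraries are given as a description, since the points share 4 cell types. How much of the likeness is the difference between cell types was not tested. *Abcb1a* and *Slco1a4* had the same 2 nearest genes, *Itm2a* (Pearson's r 0.97 and 0.96) and *Ly6c1* (0.97 and 0.95). *Mfsd2a* ran closest to *Fam107a* (0.97) and *S1pr1* (0.94), *Slco1c1* to *Slc38a3* (0.94) and *Gpd2* (0.93), and *Cav1* to *Itga1* (0.98) and *Ehd2* (0.96). *Slc2a1* ran closest to *Mindy1* (0.95) and *Eogt* (0.95), and *Abcg2* to *Acvrl1* (0.93) and *Slfn5* (0.93). *Slc16a1* ran closest to *Slc2a1* (0.91) and *Tspan5* (0.91), and *Slc7a5* to *Sec14l1* (0.90) and *Slc39a10* (0.87). *Plvap* had the weakest best match, *Unc45b* (0.88), followed by *Slc2a1* (0.86).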

How the data were processed

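RNA of endothelial cells, pericytes, astrocytes and microglia was sequenced in 48 libraries. The authors trimmed reads with Trimmomatic 0.38, aligned them to GRCm38 with STAR 2.6.1d, counted them on genes with featureCounts 1.6.3, without multi-mapping reads or strand, and normalized the counts with DESeq2 1.18.1. The deposited values are whole numbers, rounded from those normalized counts, and were handled here as a score and not as raw counts, so that no count test was run. Groups follow the table's columns as given in the sample descriptions.

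Values were tested in R 4.3.3 with limma 3.58.1 (lmFit, eBayes with trend) on log2(normalized count + 1), which understates changes of low genes. Stroke changes were fitted separately for each cell type, and the hemispheres were paired only in the alternative with the replicate block. Cell type differences and interactions came from 1 fit of 8 group means. Genes with a mean of at least 10 were tested, two-sided, with Benjamini-Hochberg adjustment over all of them. A call needed an adjusted p of at most 0.05, a change of at least 1.5-fold and over 10 normalized counts throughout the 6 libraries of at least 1 group compared; for interactions, the adjusted p alone. The fit was tested on simulated data. The worth of 1 read was estimated from the spacing of low values, which gives the floor of 3 reads and covers counting error only. Outside the replicate block, p-values measure the spread between pools within groups and not that of the paired differences. Summaries were made with pandas 2.3.3 in Python 3.11.15, and plots with matplotlib 3.10.9. Exon lengths and 75-base windows came from GENCODE release M21.

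The replicate number pairs hemispheres, since both come from the same pooled mice. Same-numbered libraries deviated together with a mean correlation across genes of 0.23, 0.23, 0.38 and 0.14 in endothelial cells, pericytes, astrocytes and microglia, against -0.04, -0.04, -0.08 and -0.03 for other numbers. Alternatives were pseudocounts of 0.1 and 10, the replicate block, rescaling, a minimum mean of 50 or none, each replicate left out, replicates 1 to 4 alone, a joint fit of 48 libraries and the cell types of the sample titles. Replicates 1 to 4 were set apart from replicates 5 and 6 after earlier results of these data; the labels name no batch. The genes and lists were likewise chosen with earlier results of these data known. All 10 genes are named; of the wider lists, every gene called in endothelial cells and, in each other cell type, up to 3 called genes with the smallest p; and for each gene the 2 genes of highest Pearson's r.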

Additional observations from a re-analysis of the deposited data

Results flagged for a closer look

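Of 80 groups of 6 libraries, 1 for each gene, cell type and hemisphere, 7 held a library whose gap to its nearest neighbour was more than 0.625 of the group's range. That limit marks about 1 in 20 groups of independent, normally distributed values. The values here are untransformed counts and the groups share libraries, so the 7 cannot be set against that rate. Ipsilateral pericyte replicate 6 accounted for a pair of the 7, with *Slc2a1* at 8065 normalized counts against 2676 to 3049 in the other 5 and *Slco1a4* at 2573 against 111 to 764. Contralateral pericyte replicate 2 accounted for a further pair, with *Mfsd2a* at 798 against 36 to 319 and *Slco1c1* at 2881 against 160 to 1023. *Plvap* reached 4850 in ipsilateral endothelial replicate 6, against 537 to 1816. *Cav1* was at 2693 in contralateral endothelial replicate 2, against 6608 to 8158, and at 242 in contralateral microglia replicate 6, against 0 to 70.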

How the results depend on the processing

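The count of 0 genes called in endothelial cells held under every alternative run, as did the 0 called for a difference in stroke change between cell types. The count in astrocytes was 1, and became 2 with the replicate block. It was 0 with a mean of at least 50, where *Plvap* was not tested. It was also 0 in replicates 1 to 4 alone, 0 in the joint fit and 0 without any 1 replicate (lowest 0, highest 0). The count in microglia was 0, and 0 to 1 with 1 replicate left out. The 1 was *Slc16a1* without replicate 2, where 1909 of 13233 genes tested were called. With the cell types of the sample titles, 6 genes were called in pericytes and 5 in microglia, since hemispheres of different columns are then compared. Of all genes tested, 6219 of 13849 and 6179 of 14133 were called there. The replicate block changed no other count of called genes among the 10. The counts of genes that differed between contralateral endothelial cells and the others stayed within 1.5 times of 9, 9 and 10, and 383 recomputed values of single genes kept direction and call while 7, all of *Slco1c1* against astrocytes, lost the call. Of the stroke changes of the 10 genes, 529 recomputed values kept direction and call, 8 lost the call, 10 gained one and 30 changed sign. Under the titles' cell types these were *Abcg2* (-0.71) and *Mfsd2a* (-1.31) in pericytes and *Mfsd2a* (1.54), *Slco1a4* (0.89), *Slco1c1* (0.82) and *Slc7a5* (-1.29) in microglia. Rescaling gave *Slc2a1* in pericytes 0.010 and *Mfsd2a* in microglia 0.011, and a pseudocount of 10 gave *Plvap* in microglia -0.23. Replicates 1 to 4 alone gave -0.18 for *Plvap* in endothelial cells and -0.017 for *Abcg2* and -0.076 for *Slc7a5* in microglia. With 1 replicate left out, *Plvap* in endothelial cells ranged from -0.20 (without 2) to 0.38, and *Cav1* in astrocytes from -0.033 (without 3) to 0.59. In pericytes, *Slc2a1* ranged from -0.24 to 0.15 (without 2), *Abcb1a* from -0.62 to 0.35 (without 2), *Mfsd2a* from -0.39 (without 4) to 0.75, *Slc7a5* from -0.045 (without 4) to 0.73 and *Slc16a1* from -0.0035 (without 4) to 0.64. In microglia, *Abcb1a* ranged from -0.62 (without 3) to 0.76, *Abcg2* from -0.039 (without 4) to 0.11, *Mfsd2a* from -0.33 to 0.42 (without 2), *Slc7a5* from -0.090 (without 3) to 0.41 and *Plvap* from -0.33 (without 3) to 0.98. The cause of these shifts was not tested.

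Values near the floor limit *Plvap* in pericytes and microglia and *Cav1* and *Abcb1a* in microglia, where single libraries stand at 0 or 1, and *Plvap* in contralateral astrocytes, at 5 to 26. The rounding of the deposited values hides their counting error, and the spread of 6 pools leaves intervals of about 1 log2 unit or more around most endothelial changes.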
